A study of Homo sapiens with 12 samples.

Results

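The 10 genes described here are the chaperones, folding enzymes, degradation factors and transcription factors that mark the ATF6 and XBP1 branches of the unfolded protein response: HSPA5, HSP90B1, DNAJB9, XBP1, SEL1L, HERPUD1, SDF2L1, PDIA4, CALR and ATF6. They were taken by gene symbol as known ATF6 and XBP1 branch genes. All 10 were listed in each of 4 comparison tables, of which the longest holds 23195 genes. The cells were HCT116, an established human colorectal carcinoma line. Each siRNA, siControl or siRFX7, was combined with DMSO or Nutlin-3a, which gave 4 groups with 3 polyA RNA libraries each. Nutlin-3a was given at 10 µM for 24 h, and DMSO, its solvent, for as long. Every group had received an siRNA, either the control or the one against the transcription factor gene RFX7. The labels used here name neither the siRNA sequences nor how many were used. They also do not say whether replicates were separate cultures, so the p-values measure the spread between these libraries, which may be technical. Nutlin-3a blocks the binding of MDM2 to p53 and so stabilises p53.

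The endoplasmic reticulum (ER) folds secreted and membrane proteins with the help of resident chaperones. When unfolded protein builds up there, ATF6 is cut to release a transcription factor, the sensor IRE1 (gene ERN1) splices XBP1 mRNA, and the sensor PERK (gene EIF2AK3) phosphorylates the initiation factor eIF2. ATF6 and spliced XBP1 raise chaperones and degradation factors. The PERK branch lets ATF4 be translated, and ATF4 raises genes of amino acid synthesis and transport, but ATF4 also responds to amino acid shortage, haem shortage and double-stranded RNA through other eIF2 kinases. The question put to the data was whether changes of ATF4 branch genes came with changes of ATF6 and XBP1 branch genes.

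With siRFX7 in DMSO, 5 of the 10 ER genes and 19 of 21 ATF4 branch genes were lower, against 15.5% of all genes and 23.4% of those whose mean reached 100 normalized counts. With Nutlin-3a in siRFX7 cells, 7 of 10 ER genes were higher and none lower, against 21.7% and 34.0% higher by the same measures. Of the ATF4 branch genes 13 of 21 were lower and 4 higher there. Among called changes of at least 0.58 in log2, 4 ATF4 branch genes were lower and 3 higher, and 1 of the 10 ER genes was higher. Over all genes 2407 were higher and 2423 lower at that minimum. With no minimum, 19.7% of all genes were lower in that comparison, and 28.7% of those whose mean reached 100. In the difference of the Nutlin-3a effects between the siRNAs, the called genes of both groups lay above 0, 7 of 10 and 16 of 21. Of all genes 3.28% were called above 0 and 2.92% below, or 5.92% and 4.69% of those whose mean reached 100. Whether the ER and ATF4 branch groups differ from each other was not tested. A gene is called higher or lower here at an adjusted p below 0.05, with no minimum fold change. Called changes of single ER genes were modest in size, with log2 fold changes in the authors' deposited tables from -0.65 (HERPUD1, siRFX7 in DMSO) to 0.99 (DNAJB9, Nutlin-3a in siRFX7).

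The siRNA target was checked first. RFX7 had fitted group means of 944 normalized counts with DMSO and 1332 with Nutlin-3a in siControl cells, and of 185 and 302 in siRFX7 cells, computed from the authors' deposited tables. It was lower in both groups that received siRFX7. Mean normalized counts summed over genes came to 26801484, and the depth of single libraries is unknown. The epithelial markers KRT8, KRT18, KRT19, EPCAM and CDH1 had mean normalized counts from 2585 to 80338, VIL1 had fitted group means from 3.67 to 17.5 and CDX1 was not listed. The leukocyte marker PTPRC and the endothelial marker PECAM1 were not listed. Of the fibroblast collagens, COL3A1 had a mean of 2.08 and COL1A1 had fitted group means from 349 to 515; the part of COL1A1 in the results was not tested.

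The promoters of the 10 genes are shown to locate the ER stress element, through which ATF6 is known to act. Since the genes were chosen as known ATF6 and XBP1 branch genes, its presence in them is a description and not independent of that choice. The element was searched as CCAAT and CCACG with any 9 bases between them, on both strands, from 250 bases before to 50 bases after each RefSeq transcription start (GRCh38.p14). All 10 genes had a promoter window, and PDIA4 and XBP1 had more than 1. An exact match was held by 4 of the 10 genes, by 4 of 20 other ER folding genes, by 1 of 14 translocation genes and by 17 of the 12010 genes of the Nutlin-3a tables that had a window (0.142%). Over all RefSeq promoters, 27 of 35116 windows held it (0.0769%). The matches are given 5′ to 3′ on the strand they match, with the fixed bases of the element in capitals, and HSP90B1 had 2.
HSPA5, chr9:125241391-125241409, minus strand: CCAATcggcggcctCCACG
HSP90B1, chr12:103930216-103930234, plus strand: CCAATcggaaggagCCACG
HSP90B1, chr12:103930321-103930339, minus strand: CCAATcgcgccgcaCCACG
XBP1, chr22:28800603-28800621, minus strand: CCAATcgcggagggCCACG
CALR, chr19:12938384-12938402, minus strand: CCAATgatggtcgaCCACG

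The matches in HSPA5 and XBP1 lay on the strand of the gene and close to its start, at -66 to -48 and -52 to -34. In CALR the match lay on the opposite strand at -225 to -207. A shorter form, the ER stress element II, was searched as ATTGG and CCACG with 1 base between them, and 2 of the 10 genes and 1 of the 20 other folding genes held it, against 14 of the 12010 genes (0.117%) and 19 of 35116 windows (0.0541%). The core of the ATF4 composite element was searched as TGATG, any base, AA and any base, and HERPUD1 alone of the 10 held it, against 343 of the 12010 genes (2.86%) and 1268 windows (3.61%). Of the 20 ATF4 branch genes with a promoter window, 5 held that core, namely ASNS, ATF3, CEBPG, CHAC1 and SLC3A2, and none held either ER stress element. The core of the unfolded protein response element, TGACGTGG, was in none of the 10 genes, in 3 of 20 other folding genes, 2 of 15 degradation genes and 3 of 14 translocation genes, and in 136 of the 12010 genes (1.13%) and 256 windows (0.729%). These matches are letters in a window and were not tested as binding sites.
HERPUD1, ER stress element II, chr16:56932025-56932035, plus strand: ATTGGgCCACG
SDF2L1, ER stress element II, chr22:21642114-21642124, minus strand: ATTGGtCCACG
HERPUD1, ATF4 composite element core, chr16:56931965-56931973, minus strand: TGATGcAAc

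**Figure D1:**
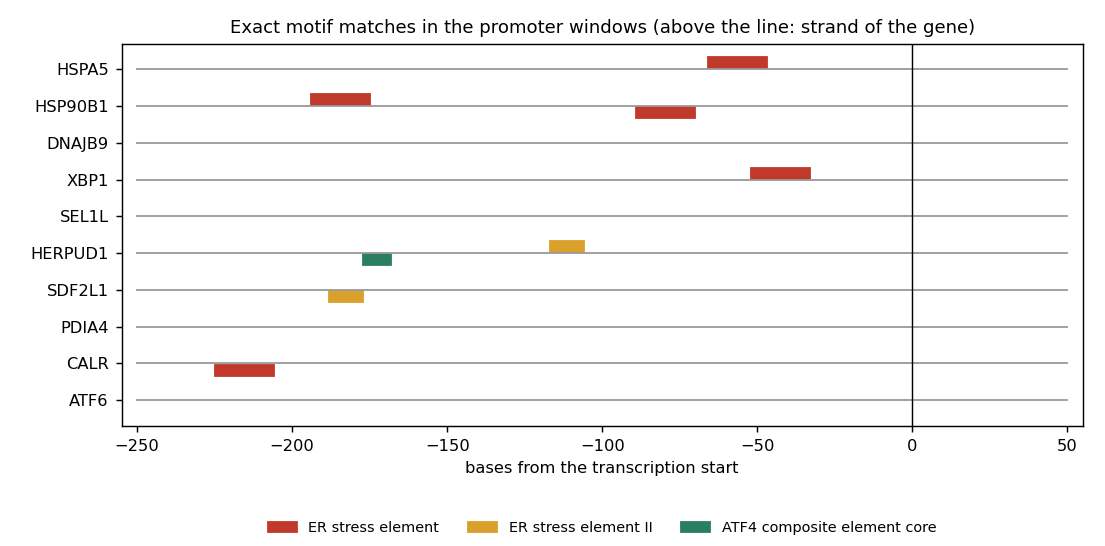
Exact matches to 3 motifs in the promoter windows of the 10 genes; the horizontal axis is the distance in bases from the transcription start, and blocks above a line are on the strand of the gene. HERPUD1 has an ER stress element II and an ATF4 composite core, and DNAJB9, SEL1L, PDIA4 and ATF6 have none of the 3 motifs.

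Longer promoter context is given for HSPA5, the gene of the chaperone that holds the sensors inactive, and for HERPUD1, which of the 10 had the largest difference in Nutlin-3a response between the siRNAs. Both windows of 300 bases run 5′ to 3′ along the gene, on GRCh38.p14, with the matches above in capitals; the HERPUD1 composite core reads in reverse complement there.
HSPA5, chr9:125241294-125241593, minus strand: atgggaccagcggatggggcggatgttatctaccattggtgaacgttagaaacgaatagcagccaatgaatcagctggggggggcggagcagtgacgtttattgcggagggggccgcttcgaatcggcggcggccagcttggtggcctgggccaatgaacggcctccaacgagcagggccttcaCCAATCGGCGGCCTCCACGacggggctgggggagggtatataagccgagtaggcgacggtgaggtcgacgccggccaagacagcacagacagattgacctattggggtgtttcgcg
HERPUD1, chr16:56931892-56932191, plus strand: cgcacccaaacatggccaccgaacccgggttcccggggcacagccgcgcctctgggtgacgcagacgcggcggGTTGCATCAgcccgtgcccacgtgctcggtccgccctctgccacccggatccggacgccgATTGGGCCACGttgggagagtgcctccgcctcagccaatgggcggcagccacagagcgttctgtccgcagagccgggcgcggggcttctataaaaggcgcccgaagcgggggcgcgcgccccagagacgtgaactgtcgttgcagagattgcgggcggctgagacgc

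The levels of the genes are given as fitted group means, computed from the authors' deposited tables, since these tables hold no value per library. ATF6 (ENSG00000118217, chromosome 1 from 161766294 to 161964070, plus strand, GRCh38), the sensor that becomes a transcription factor, had 2309 normalized counts with DMSO and 1848 with Nutlin-3a in siControl cells, and 1775 and 1943 in siRFX7 cells. XBP1 (ENSG00000100219, chromosome 22 from 28794555 to 28800597, minus strand), whose mRNA is the substrate of IRE1, had 2738, 2252, 1928 and 2300 normalized counts in the same order. Both factors were highest in siControl DMSO and lowest in siRFX7 DMSO.

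XBP1 counts per gene do not separate the unspliced from the spliced mRNA. In GENCODE 29, 2 XBP1 transcripts lack 26 bases that the transcript of 1850 bases holds at positions 570 to 595. The joined sequence allows 7 placements of the gap, and 1 of them is shown. It may be shifted by some bases from the place where IRE1 cuts, which was not determined here. These 26 bases are printed because the state of the IRE1 branch is read from their loss, which the tables do not report.
XBP1, IRE1 intron: cactcagactacgtgcacctctgcag

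HSPA5 (ENSG00000044574, chromosome 9 from 125234853 to 125241330, minus strand), the chaperone BiP, had 40082 normalized counts with DMSO and 37310 with Nutlin-3a in siControl cells, and 33271 and 48603 in siRFX7 cells, computed from the authors' deposited tables. DNAJB9 (ENSG00000128590, chromosome 7 from 108569568 to 108574850, plus strand), a co-chaperone of BiP, had 422, 592, 424 and 840 in that order. PDIA4 (ENSG00000155660, chromosome 7 from 149003062 to 149028641, minus strand), a protein disulfide isomerase, had 11057, 12337, 12725 and 18733 normalized counts. All 3 were highest with siRFX7 and Nutlin-3a together.

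HSP90B1 (ENSG00000166598, chromosome 12 from 103930107 to 103953645, plus strand), the ER form of HSP90, had 30638, 25563, 26737 and 25972 normalized counts, computed from the authors' deposited tables. CALR (ENSG00000179218, chromosome 19 from 12938578 to 12944489, plus strand), the lectin chaperone calreticulin, had 31167, 30892, 29321 and 34095. SDF2L1 (ENSG00000128228, chromosome 22 from 21642261 to 21644298, plus strand), which works with BiP, had 2241, 1988, 2153 and 2066. These 3 had the narrowest ranges of the 10; the highest group was 1.13-fold above the lowest for SDF2L1 and 1.16-fold for CALR.

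Of the genes that take misfolded protein out of the ER for degradation, SEL1L (ENSG00000071537, chromosome 14 from 81471549 to 81533861, minus strand), the partner of the ubiquitin ligase SYVN1, had 2196, 2516, 2418 and 3214 normalized counts, computed from the authors' deposited tables. HERPUD1 (ENSG00000051108, chromosome 16 from 56932048 to 56944863, plus strand), a membrane component of the same machinery, had 1981, 1414, 1266 and 1853. HERPUD1 was therefore highest in siControl DMSO, lowest in siRFX7 DMSO, and in between with Nutlin-3a. The 10 genes together held 0.463%, 0.426%, 0.432% and 0.519% of the summed fitted means in the 4 groups, in the same order.

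**Figure D2:**
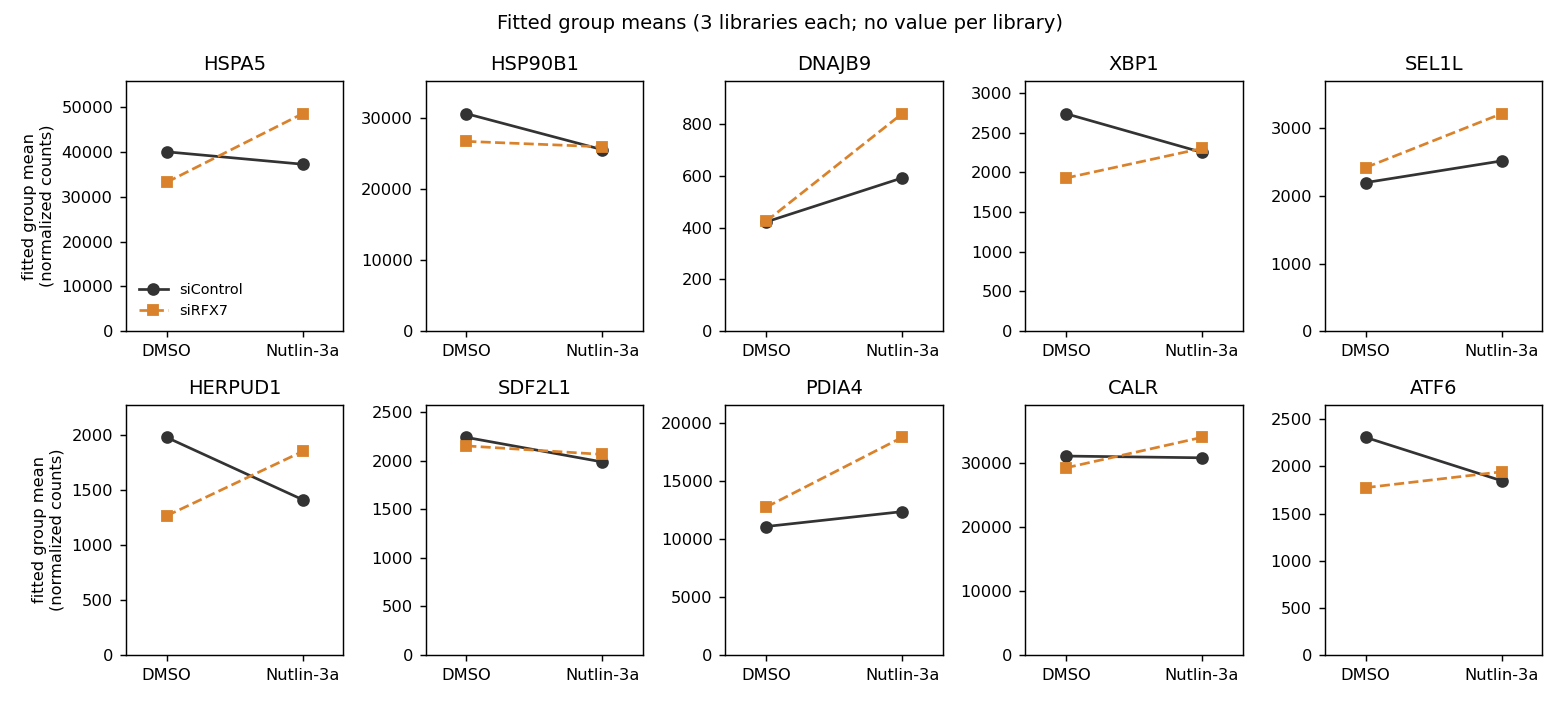
Fitted group means of the 10 genes in normalized counts (vertical axes start at 0), for DMSO and Nutlin-3a in siControl (circles) and siRFX7 (squares); no error is drawn because no value per library was used. The lines cross for 7 genes, of which HSPA5 and HERPUD1 have a called siRFX7 effect in both treatments, and DNAJB9 and PDIA4 reach 840 and 18733 with siRFX7 and Nutlin-3a.

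Some counts could hold reads of neighbours, because the handling of strand is not given in the sources used here. DNAJB9 overlaps THAP5 over 183 bases and PNPLA8 over 99 bases on the other strand, and their mean normalized counts were 1072 and 456. In the authors' deposited tables the Nutlin-3a log2 fold change of THAP5 was -0.33 in siControl and, not called, -0.12 in siRFX7. DNAJB9 had 0.49 and 0.99 there. PNPLA8 fell with siRFX7 in both treatments (-1.24 and -1.18, DESeq2 adjusted p 4.47e-28 and 6.07e-26, in the authors' deposited tables). The siRFX7 values of DNAJB9 were 0.01, not called, in DMSO and 0.51 in Nutlin-3a. HSP90B1 overlaps C12orf73 over 3444 bases on the other strand. The mean normalized count was 327 for C12orf73 and 27228 for HSP90B1. The part of neighbour reads in the counts of DNAJB9 and HSP90B1 was not tested.

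The first comparison asked what Nutlin-3a did to these genes in siControl cells. Nutlin-3a raised 3 of the 10 (DNAJB9, SEL1L and PDIA4), lowered 5 (HSPA5, HSP90B1, XBP1, HERPUD1 and ATF6) and left 2 not called (CALR and SDF2L1), in the authors' deposited table. Over all genes tested, 22% were called higher and 21.2% lower. Among genes whose mean reached 100 normalized counts, as it did for all 10, 65.5% were called. The share of the 10 genes called was thus close to that of other well-expressed genes.

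DNAJB9 rose by 0.49 in log2 (standard error 0.08, DESeq2 adjusted p 1.60e-08), the largest rise among the 10, in the authors' deposited table. HERPUD1 had the largest fall at -0.49 (standard error 0.05, DESeq2 adjusted p 1.74e-18), in the authors' deposited table. ATF6 was at -0.32, XBP1 at -0.28 and HSP90B1 at -0.26, SEL1L at 0.20 and PDIA4 at 0.16. The change of HSPA5 was small, -0.10 with a standard error of 0.04, and its DESeq2 adjusted p of 0.0310 in the authors' deposited table does not pass a threshold of 0.01; SEL1L at 0.0150 does not either. For the 2 genes not called, the 95% intervals of the log2 fold change were -0.10 to 0.07 for CALR and -0.44 to 0.09 for SDF2L1. The median of the 10 genes was -0.14, against 0.02 over all genes tested.

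In siRFX7 cells the same treatment raised 7 of the 10 genes and lowered none, in the authors' deposited table. Over all genes, 21.7% were called higher and 19.7% lower, and 62.7% of genes with a mean of at least 100 were called. DNAJB9 rose most, to 1.98-fold (log2 0.99, standard error 0.08, DESeq2 adjusted p 4.76e-34, in the authors' deposited table). PDIA4 rose by 0.56, HERPUD1 by 0.55 and HSPA5 by 0.55 in log2, with standard errors of 0.04, 0.05 and 0.04, in the authors' deposited table. SEL1L rose by 0.41, XBP1 by 0.26 and CALR by 0.22. ATF6 (95% interval -0.04 to 0.31), HSP90B1 (-0.19 to 0.10) and SDF2L1 (-0.33 to 0.21) were not called. The median of the 10 was 0.33, against -0.02 over all genes tested. HSPA5, XBP1 and HERPUD1 were thus lower with Nutlin-3a in siControl and higher in siRFX7, in comparisons that have no library in common. The siControl call of HSPA5 did not pass an adjusted p of 0.01. The share of all genes called in opposite directions was not computed.

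**Figure D3:**
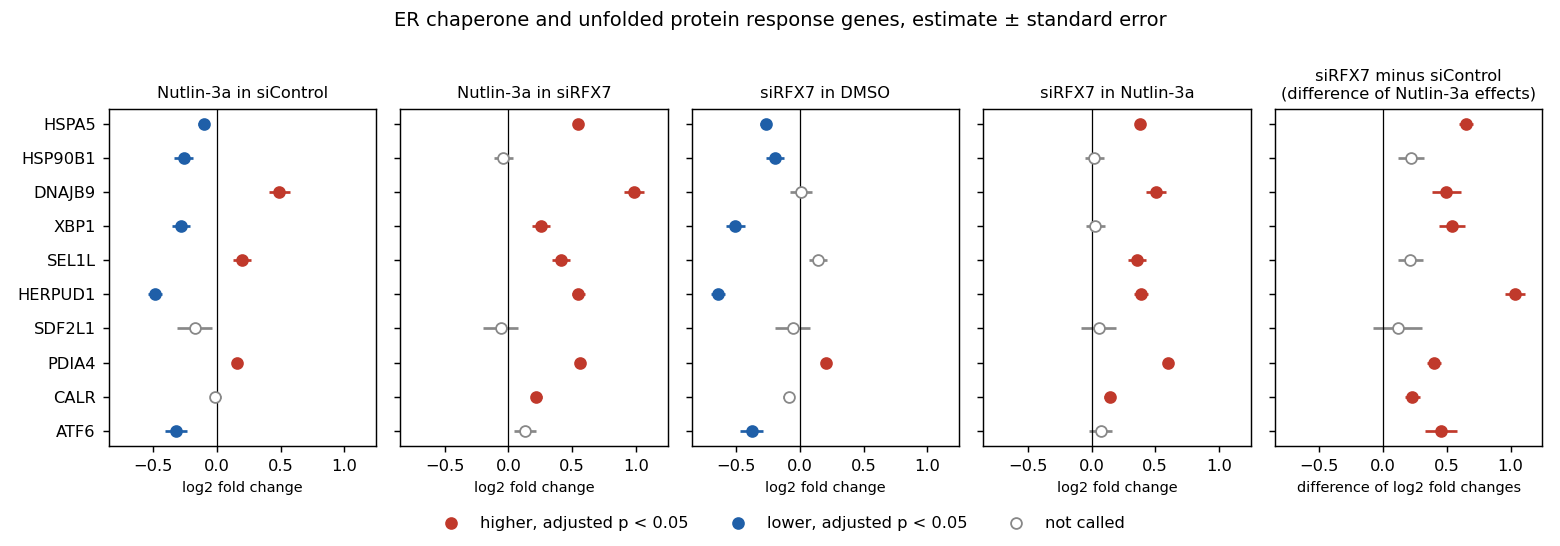
Log2 fold changes of the 10 genes in the 4 comparisons, and in the last panel the difference of the Nutlin-3a fold changes (siRFX7 minus siControl), each with its standard error; filled points are called. HERPUD1 lies at -0.49 and 0.55 in the Nutlin-3a panels, and all 10 differences are above 0, of which 7 are called.

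The next comparison asked what the RFX7 knockdown did in DMSO. It lowered 5 of the 10 genes (HERPUD1, XBP1, ATF6, HSPA5 and HSP90B1) and raised 1 (PDIA4), in the authors' deposited table. Over all genes, 15.5% were called lower and 13.5% higher, and 40.5% of genes with a mean of at least 100 were called. That balance turns with the scaling: 2704 genes were higher and 3107 lower as deposited, and 3391 higher and 2262 lower with the summed group means set equal, where 2 of the 10 ER genes were higher and 4 lower. This comparison and that of Nutlin-3a in siControl both use the siControl DMSO libraries as their reference, so their values are not independent.

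HERPUD1 fell most, to 0.639 of its siControl level (log2 -0.65, standard error 0.05, DESeq2 adjusted p 1.27e-30, in the authors' deposited table). XBP1 had -0.51, ATF6 -0.38 and HSPA5 -0.27, with DESeq2 adjusted p of 6.39e-11, 0.000159 and 2.14e-09, in the authors' deposited table. HSP90B1 had -0.20 (standard error 0.07, DESeq2 adjusted p 0.0302, in the authors' deposited table), and with group totals set equal it was no longer called, at -0.14 with an adjusted p of 0.153. PDIA4 rose by 0.20 with a standard error of 0.04. Not called were DNAJB9 (95% interval -0.16 to 0.17), SDF2L1 (-0.32 to 0.21), CALR (-0.17 to -0.00300) and SEL1L (0.00011 to 0.28); SEL1L was called at 0.20 with group totals set equal (adjusted p 0.0233). The median of the 10 was -0.14, against -0.00318 over all genes tested.

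Under Nutlin-3a the knockdown raised 6 of the 10 genes and lowered none, in the authors' deposited table. Over all genes, 15% were called higher and 13.6% lower, and 39.1% of genes with a mean of at least 100 were called. PDIA4 rose most, to 1.52-fold (log2 0.60, standard error 0.04, DESeq2 adjusted p 1.05e-51, in the authors' deposited table). DNAJB9 rose by 0.51, HERPUD1 by 0.39, HSPA5 by 0.38, SEL1L by 0.35 and CALR by 0.14 in log2, in the authors' deposited table. The transcription factor genes themselves were not called, with 95% intervals of -0.10 to 0.25 for ATF6 and -0.11 to 0.17 for XBP1. HSP90B1 (-0.12 to 0.17) and SDF2L1 (-0.21 to 0.32) were not called either. The median of the 10 was 0.25, against 0.00218 over all genes tested. PDIA4 was the only one of the 10 raised by siRFX7 in both treatments, and HSPA5 and HERPUD1 were lower in DMSO and higher in Nutlin-3a. The shares of all genes with these patterns were not computed.

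Subtracting the siControl response to Nutlin-3a from the siRFX7 response gave a log2 difference above 0 for all 10 genes, and it was called for 7 by a two-sided z test adjusted by Benjamini-Hochberg over 23195 genes. It equals the siRFX7 effect in Nutlin-3a minus that in DMSO. Over all genes, 3.28% were called above 0 and 2.92% below 0, and 10.6% of genes with a mean of at least 100 were called. With the summed group means set equal, 583 genes were called above 0 and 792 below, against 760 and 677 as deposited, and of the 10 ER genes 7 were called above 0 and none below under both. HERPUD1 had the largest difference at 1.04 (standard error 0.08, adjusted p 1.77e-38), followed by HSPA5 at 0.65 (standard error 0.06, adjusted p 1.05e-25) and XBP1 at 0.54 (standard error 0.10, adjusted p 1.06e-05). DNAJB9 differed by 0.50, ATF6 by 0.45, PDIA4 by 0.40 and CALR by 0.23, with adjusted p of 0.000634, 0.00901, 7.94e-11 and 0.00533. HSP90B1 (0.22, 95% interval 0.01 to 0.42), SEL1L (0.21, 0.02 to 0.41) and SDF2L1 (0.11, -0.26 to 0.49) were not called, with adjusted p of 0.258, 0.240 and 0.880. The median of the 10 was 0.43, against 0.00338 over all genes tested. The 10 genes are not independent of each other, and the siControl DMSO libraries enter every one of these differences.

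The ATF4 branch was then set beside the ER genes. The list held 22 genes, of which 21 were listed in the tables and VLDLR was not. In the authors' deposited table for siRFX7 in DMSO, 19 of 21 were lower and 1, ATF5, was higher, and the median log2 fold change was -1.16. The shares over all genes were 15.5% lower and 13.5% higher. ATF4 itself had -1.04, DDIT3, which encodes the stress factor CHOP, -1.31, and CHAC1, a glutathione-degrading enzyme, -2.29, in the authors' deposited table. ASNS, which makes asparagine, had -1.98, and DDIT4, an inhibitor of mTORC1, -1.97. Of the ER genes 5 of 10 were lower in this comparison, and their median was -0.14.

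With Nutlin-3a in siControl, 16 of 21 ATF4 branch genes were lower and 5 higher, with a median of -1.27, in the authors' deposited table. The shares over all genes were 21.2% lower and 22% higher. ATF4 had fitted group means of 14167 normalized counts with DMSO and 5128 with Nutlin-3a in siControl cells, and 6895 and 4717 in siRFX7 cells. CHAC1 had 888, 135, 182 and 155 in that order, so siControl DMSO was the high group for both. The largest falls were those of CHAC1 (-2.72), the serine synthesis enzyme PHGDH (-2.41) and ASNS (-2.23), in the authors' deposited table. The 5 that rose were NUPR1 (2.28), ATF3 (1.05), SESN2 (0.94), PPP1R15A (0.42) and DDIT4 (0.27), the last 2 named after their values were seen. SESN2, ATF3 and DDIT4 are also known p53 targets. Levels were low for NUPR1, with fitted group means from 5.07 to 84.3 normalized counts, and for ASNS, from 23.9 to 237.

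In siRFX7 cells Nutlin-3a lowered 13 and raised 4 of the 21 ATF4 branch genes, with a median of -0.29, in the authors' deposited table, while 7 of the 10 ER genes rose and none fell. The shares over all genes were 19.7% lower and 21.7% higher. PHGDH had -1.65, ASNS -1.33, CEBPG -0.71 and ATF4 -0.55, in the authors' deposited table. DDIT3 and CHAC1 were not called there, at -0.08 and -0.23. NUPR1 rose by 3.90 (standard error 0.42), from a fitted group mean of 5.07 normalized counts in siRFX7 DMSO. ATF3 rose by 0.81, and SESN2 rose too. With siRFX7 in Nutlin-3a, 9 of the 21 were lower and 2 higher, with a median of -0.18, in the authors' deposited table, while 6 of the 10 ER genes were higher and none lower. Here the shares over all genes were 13.6% lower and 15% higher. The 2 ATF4 branch genes that rose were ATF5 (0.71) and DDIT3 (0.48), and the largest falls were those of DDIT4 (-1.78), ASNS (-1.09) and PPP1R15A (-0.74). ATF4 had -0.12 and was not called.

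The difference of the Nutlin-3a effects was above 0 and called for 16 of the 21 ATF4 branch genes and below 0 for none, with a median of 0.85 (two-sided z test, adjusted over 23195 genes). With summed group means set equal, or among genes with a mean of at least 100, 1 ATF4 branch gene was called below 0. The shares over all genes were 3.28% above 0 and 2.92% below. CHAC1 had 2.49, DDIT3 1.79 and TRIB3, a pseudokinase induced by stress, 1.63, and ATF4 had 0.92. In this difference, which holds all 4 groups, both lists had their called genes on the same side, 7 of 10 and 16 of 21. Whether the lists differ from each other was not tested.

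**Figure D4:**
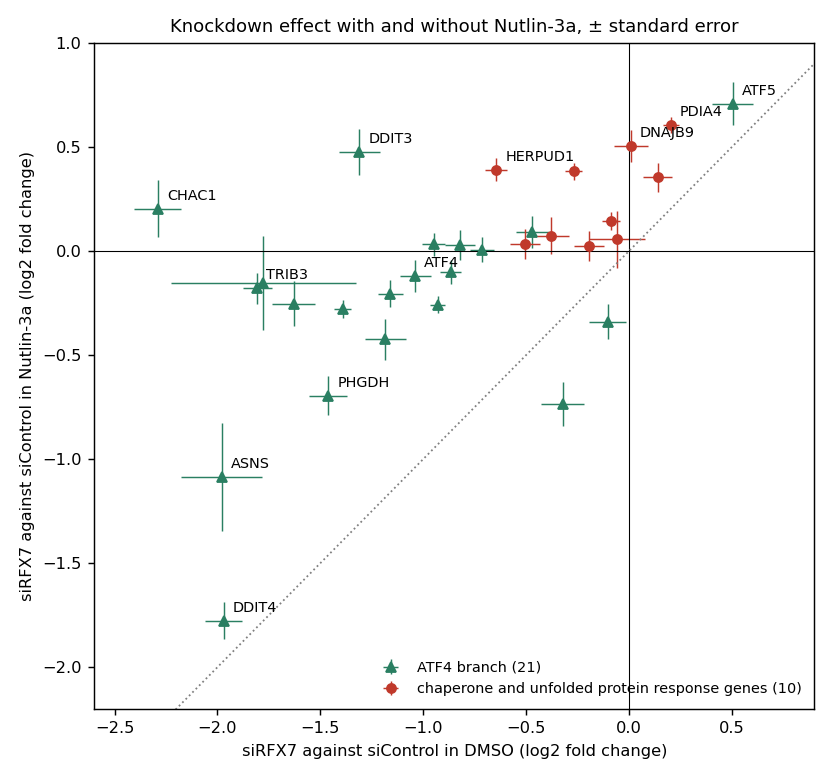
The siRFX7 log2 fold change in DMSO (horizontal) and in Nutlin-3a (vertical) for the 10 ER genes (circles) and 21 ATF4 branch genes (triangles), with standard errors; the axes share no library, and the dotted line marks equal effects. In DMSO the ATF4 branch reaches -2.29 at CHAC1 while the ER genes stay between -0.65 and 0.20, and in Nutlin-3a all 10 ER genes have values above 0, 6 of them called.

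The wider ER machinery was described from lists written with the members. Among all genes whose mean reached 100 normalized counts, against which the counts of these lists can be read, siRFX7 raised 17.1% and lowered 23.4% in DMSO, and raised 19.8% and lowered 19.3% under Nutlin-3a. With Nutlin-3a, 4167 of these 12463 genes (33.4%) were higher and 3994 lower in siControl cells. In siRFX7 cells Nutlin-3a raised 34.0% of them and lowered 28.7%. The difference of its effects was called above 0 for 5.92% and below 0 for 4.69%. Of 22 other folding genes, siRFX7 in DMSO lowered 8 and raised 2, with the largest falls for PDIA5 (-0.41), P4HB (-0.32) and HYOU1 (-0.31), in the authors' deposited table. In Nutlin-3a, siRFX7 raised 7 and lowered 3; CRELD2 rose by 0.71, MANF by 0.55 and PPIB by 0.38, in the authors' deposited table. CRELD2 and MANF are secreted ER stress proteins and PPIB is a prolyl isomerase of the ER. In siControl, Nutlin-3a raised 5 and lowered 6 of the 22, and in siRFX7 it raised 11 and lowered 3, in the authors' deposited tables. SIL1, the exchange factor of BiP, rose by 0.72 and 0.73, and the oxidase gene ERO1B by 0.62 and 1.17. ERP29 had -0.90 and -0.61 and was called both times. The difference of the Nutlin-3a effects was called for 7 of the 22, all above 0, with MANF at 0.69, DNAJC3 at 0.42 and HYOU1 at 0.37 (z test).

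Of 18 other degradation genes listed (DERL3 was not), siRFX7 lowered 6 and raised 1 in DMSO, and in the authors' deposited table for Nutlin-3a it raised 4 and lowered 4. EDEM1, a mannosidase-like factor, was at -0.54 and SYVN1 at -0.46 in DMSO. In siControl cells Nutlin-3a raised 7 of the 18 (38.9%, near the 33.4% of genes in general) and lowered 2, and in siRFX7 cells it raised 13 and lowered 2. EDEM2 rose by 0.82 and 0.91 and SYVN1 by 0.39 and 0.62, in the authors' deposited tables. NPLOC4 was the only one of the 18 with a called difference, at 0.23 (z test).

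Of 16 translocation genes, which bring proteins into the ER, siRFX7 raised 1 and lowered 1 in DMSO, and in the authors' deposited table for Nutlin-3a it raised 8 and lowered none. SEC61A1, the pore of the translocon, had 0.33 in that last comparison. In siControl cells Nutlin-3a raised 6 of the 16 and lowered 6, and in siRFX7 cells it raised 8 and lowered 1. SEC61A1 had 0.70 and 0.93 and was called both times, per the authors' deposited tables. The difference was called above 0 for 4 of the 16, with SEC63 at 0.42, SRP54 at 0.27 and SSR1 at 0.26 (z test).

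Of 11 sensors and processing enzymes, siRFX7 lowered 5 and raised 1 in DMSO, and in the authors' deposited table for Nutlin-3a it lowered 2 and raised 3. EIF2AK3, which encodes PERK, was at -0.37 in DMSO and was not called in Nutlin-3a at 0.21; ERN1, which encodes IRE1, was at -0.34 and, not called, -0.22. In siControl cells Nutlin-3a raised 3 of the 11 and lowered 2, and in siRFX7 cells it raised 5 and lowered 1, per the authors' deposited tables. EIF2AK3 rose by 0.64 and ERN1 by 0.35 with Nutlin-3a in siRFX7; in siControl they had 0.05 and 0.23 and were not called. The difference was called above 0 for 3 of the 11, EIF2AK3 at 0.58, WFS1 at 0.28 and MBTPS1, which encodes the protease that cuts ATF6, at 0.26 (z test).

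**Figure D5:**
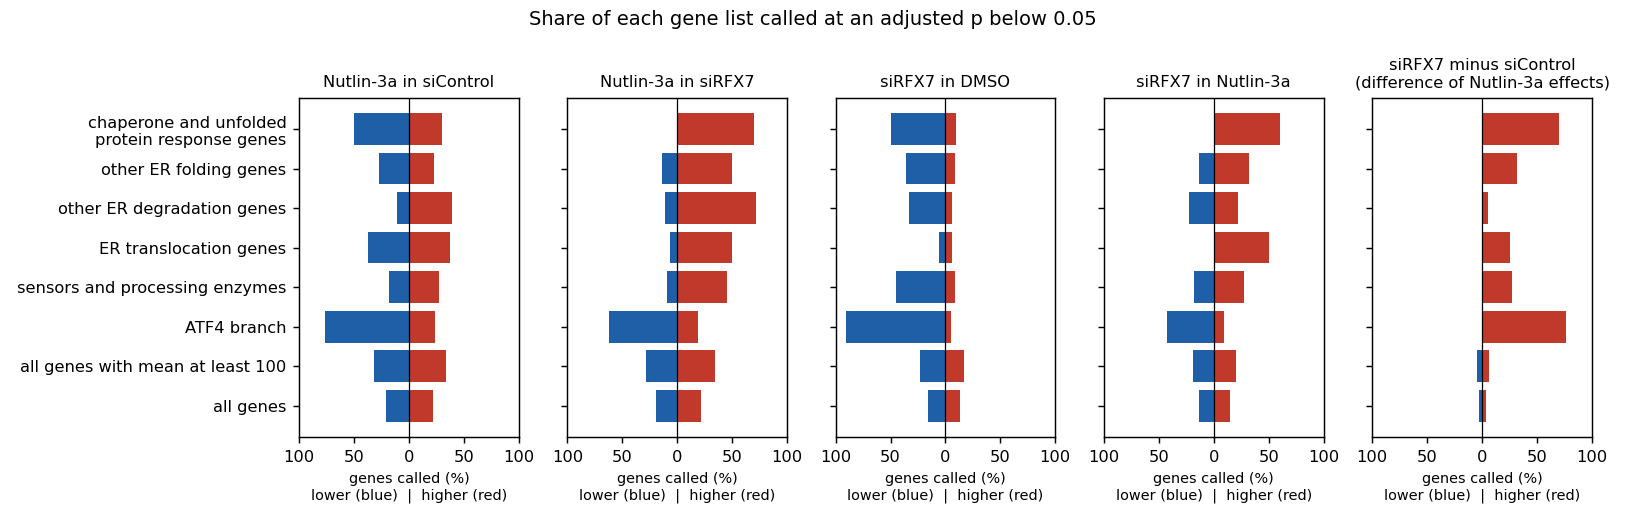
Percentage of each list called lower (blue, left) and higher (red, right) in the 4 comparisons and in the difference of the Nutlin-3a effects; the bottom rows give all genes and those whose mean reached 100 normalized counts. The ER genes go from 50% lower with siRFX7 in DMSO to 60% higher in Nutlin-3a, and the ATF4 branch from 90.5% lower to 42.9% lower and 9.52% higher.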

How the data were processed

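PolyA RNA was sequenced by the submitters in 12 libraries, 3 per group, made from 500 ng of total RNA each, per the labels' protocols. The submitters' processing notes name hg38, featureCounts 1.6.5 and DESeq2 1.20.0, with bcl2fastq, Trimmomatic 0.39, cutadapt 2.10, FastQC 0.11.9, SAMtools 1.10 and Picard; the aligner, annotation and strand setting are not given in the sources used here. The values used are 4 deposited tables, each comparing 2 groups. Per the file headers they give the mean normalized count (a signal, counts divided by size factors), the log2 fold change with its standard error, the Wald statistic (a score), and the p-value and adjusted p-value of the authors' DESeq2 test. Read as siRFX7 over siControl, the fold changes of the 4 tables formed a closed loop over 19393 shared genes with an error of at most 1.29e-14 (median 0.374 read the other way).

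Computed here, with Python 3.11.15, pandas 2.3.3 and scipy 1.17.1: group means from the mean normalized count and the fold changes, assuming equal weight of the groups; the two-sided z test of the difference of the Nutlin-3a fold changes, with both standard errors added in quadrature and treated as known, tested on simulated data; and exact motif matches in RefSeq promoter windows. The simulated data were tested with the spread they were drawn from, so they cannot show errors from estimating it with few libraries. The planned edgeR test needs values per library and was not run. The members and gene lists were chosen with earlier results of these data known. Genes named are the 10 members, RFX7, ATF4, DDIT3, ERN1, EIF2AK3 and, from the up to 3 largest called changes of each other list in each direction, those that the text gives. Coordinates are from GENCODE 29 (GRCh38). Alternatives were an adjusted p below 0.01, a minimum absolute log2 fold change of 0.58, equal summed group means, a floor of 100 on the mean normalized count, and adjustment over shared genes.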

Additional observations from a re-analysis of the deposited data

Results flagged for a closer look

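The genes below stand out because their Nutlin-3a response was not the same with both siRNAs when the difference itself was put to the z test (siRFX7 minus siControl, log2, adjusted over 23195 genes). Of the 10 ER genes, HERPUD1 had 1.04, HSPA5 0.65, XBP1 0.54, DNAJB9 0.50, ATF6 0.45, PDIA4 0.40 and CALR 0.23. Of the other ER folding genes named, MANF had 0.69, DNAJC3 0.42 and HYOU1 0.37. NPLOC4, a degradation gene, had 0.23, and the translocation genes SEC63, SRP54 and SSR1 had 0.42, 0.27 and 0.26. The sensor EIF2AK3 had 0.58, and WFS1 and MBTPS1 had 0.28 and 0.26. In the ATF4 branch, CHAC1 had 2.49, DDIT3 1.79, TRIB3 1.63 and ATF4 0.92. For ATF4, CHAC1, DDIT3, TRIB3, HERPUD1, XBP1, ATF6 and SEC63 the siControl DMSO group had the highest fitted mean of the 4. The part of that group in the differences was not tested.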

How the results depend on the processing

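No paired analysis was possible because the tables carry no values per library; for the same reason leaving out replicates and edgeR were not run. A minimum absolute log2 fold change of 0.58 moved the counts of ER genes called most, from 8 to 0 with Nutlin-3a in siControl, from 7 to 1 in siRFX7 (DNAJB9), from 6 to 1 with siRFX7 in DMSO (HERPUD1), from 6 to 1 in Nutlin-3a (PDIA4), and from 7 to 2 for the difference (HERPUD1 and HSPA5). For the ATF4 branch it left 7 of 17 called with Nutlin-3a in siRFX7 (3 higher and 4 lower, from 4 and 13). With siRFX7 in Nutlin-3a it left 5 of 11 (1 higher and 4 lower, from 2 and 9). In the rest it left most ATF4 branch calls: 19 of 21 with Nutlin-3a in siControl, 17 of 20 with siRFX7 in DMSO and 15 of 16 for the difference. Over all genes it left 5198 of 10022, 4830 of 9601, 1547 of 5811, 1482 of 5554 and 544 of 1437, and an adjusted p below 0.01 left 863 of the 1437. Of 50 single values of the ER genes, 47 kept their call at an adjusted p below 0.01 (not HSPA5 and SEL1L with Nutlin-3a in siControl and HSP90B1 with siRFX7 in DMSO), 48 with equal summed group means and 50 among genes with a mean of at least 100; none changed sign. Setting those means equal turned the balance of calls over all genes with siRFX7 in DMSO, to 3391 higher and 2262 lower. For the difference it turned the balance to 583 above 0 and 792 below. There, 1 ATF4 branch gene was called below 0 with those means set equal, and likewise 1 among genes with a mean of at least 100. The equal-total shift was largest with siRFX7 in DMSO, at -0.06. Allowing 1 mismatch in CCACG raised the promoters with an ER stress element from 4 to 7 of 10, and from 0.0769% to 1.05% of all windows. In the ATF4 branch it raised them from 0 to 1 of 20 genes (DDIT3), and in the other folding genes from 4 to 5 of 20.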

Other observations

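The eIF2 kinases other than PERK belong to no ER branch and were listed with the eIF2 subunit gene EIF2S1. EIF2AK4, which encodes GCN2, the kinase that responds to amino acid shortage, rose with Nutlin-3a by 0.75 in siControl and 0.73 in siRFX7, and with siRFX7 by 0.30 in DMSO and 0.28 under Nutlin-3a (log2 fold changes of the authors' deposited tables). EIF2AK1, which encodes the haem-regulated kinase, had -0.35 and -0.27 with Nutlin-3a and, with siRFX7, -0.17 in DMSO and, not called, -0.08 under Nutlin-3a, per the authors' deposited tables. EIF2AK2, which encodes the double-stranded RNA kinase PKR, rose with siRFX7 by 0.32 and 0.40. Of these 4 genes siRFX7 raised 2 and lowered 1 in DMSO and raised 3 in Nutlin-3a. With Nutlin-3a 1 was higher and 2 lower in siControl cells, against 1 and 1 in siRFX7 cells. The difference of the Nutlin-3a effects was called for none of the 4 (z test). Among all genes whose mean reached 100 normalized counts, siRFX7 changed 40.5% in DMSO and 39.1% in Nutlin-3a. Nutlin-3a changed 65.5% of them in siControl and 62.7% in siRFX7 cells, and the difference was called for 10.6%. Whether the 4 genes depart from these shares was not tested.

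CREB3L1, a membrane-bound factor related to ATF6, had fitted means of 3.67 normalized counts with DMSO and 3.04 with Nutlin-3a in siControl cells, and 34.3 and 22.9 in siRFX7 cells. Its log2 fold change with siRFX7 was 3.22 in DMSO and 2.91 in Nutlin-3a (standard errors 0.58 and 0.62) in the authors' deposited tables. The size of this change is poorly known, since it is set against such low siControl levels. ATF6B, the paralogue of ATF6, had -0.41 with siRFX7 in DMSO and -0.47 under Nutlin-3a, both called, while ATF6 was called in DMSO alone, per the authors' deposited tables; the difference was called for ATF6 at 0.45 and not for ATF6B at -0.07 (z test).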
